A study of Mus with 2 samples.

Results

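The genes that slow the cell cycle or guard against oxidative damage in resting blood stem cells were followed through 2 single-cell RNA libraries of sorted mouse hematopoietic stem cells (HSCs). They are Cdkn1a, Cdkn1b, Cdkn1c, Cdkn2c, Cdkn2d, Foxo1, Foxo3 and Txnip, chosen by symbol, and they make up 8 of the 27998 genes in the files. All 8 were detected.

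An HSC that rests in G0 is held there by proteins that block cyclin-dependent kinases (CDKs). The CIP/KIP proteins (p21, p27 and p57) bind cyclin-CDK complexes widely, and the INK4 proteins (p18 and p19 here) bind CDK4 and CDK6. FOXO transcription factors switch on inhibitor and antioxidant genes when growth factor signalling through AKT is low, and TXNIP, a thioredoxin-binding protein of the arrestin family, limits glucose uptake.

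One library came from Mx1-Cre Id2+/+ mice and the other from Mx1-Cre Id2Δ/Δ mice, in which Id2, an inhibitor of bHLH transcription factors, had been deleted. Both carry Mx1-Cre, a recombinase switched on by interferon through pIpC, which also acts in cells other than HSCs, and the study's methods place the sort 2 weeks after pIpC. For each genotype, marrow of the tibia and fibula of 5 mice aged 8 to 12 weeks was pooled, and 1000 cells with the surface markers LSK FLT3- CD150+ CD48- were sorted and captured. In 1 clause of the labels the bones of the deleted sample are called Id2+/+, while its title and genotype give the deletion. Each genotype was captured once, so there is no replicate error and no test between genotypes. Every interval in parentheses is a 95% interval that covers counting error only, and genotype, pool, capture and depth cannot be told apart.

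The Id2+/+ library held 8612217 unique molecular identifiers (UMIs) and the Id2Δ/Δ library 17140713, and 333 and 625 cells passed the limits on depth and mitochondrial share, with 1 cell barcode shared by both. Cells of erythroid, neutrophil and haemoglobin-rich clusters, which the sort should not hold, were set apart, which left 262 and 416 stem and progenitor cells, called the retained cells, with medians of 7081 and 9663 UMIs. They include a cluster led by Vpreb3, Vpreb1 and Igll1, genes of early B cells, which did not reach the 4 raised markers needed to set it apart and held 12 Id2+/+ and 98 Id2Δ/Δ cells. The 9 genes of the HSC marker list summed to 547 UMIs per 1000000 (CPM) in the retained cells of Id2+/+ and 416 CPM in Id2Δ/Δ. In the erythroid-like cells they summed to 146 and 156 CPM. These markers were part of the rule that set clusters apart. Id2 had 22 UMIs in the retained Id2+/+ cells (10.3 CPM) and 0 in the Id2Δ/Δ cells, where 3 UMIs would have been 0.640 CPM. The ratio of Id2Δ/Δ over Id2+/+ had an upper limit of 0.0831. Empty droplets, barcodes with 1 to 100 UMIs that hold free RNA, had 8.28 CPM of Id2 (5.7 to 11.6) in Id2+/+ and 0 in Id2Δ/Δ. The Id2+/+ interval overlapped that of the retained cells (6.46 to 15.6), so their Id2 level cannot be told from free RNA. CPM values of different genes are not compared with one another.

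Across cell kinds, most of these genes were higher in the stem and progenitor cells than in the erythroid-like cells, and Cdkn2c was lower. Of the 7 genes with at least 20 UMIs over both kinds in each library, 5 (Cdkn1b, Cdkn1c, Cdkn2d, Foxo1 and Txnip) were at least 1.5-fold lower in erythroid-like than in retained cells in both libraries, where 33.2% of all genes were. Cdkn2c alone was at least 1.5-fold higher, as were 14.0% of all genes. The erythroid-like cells numbered 35 and 156 and had medians of 37549 and 40038.5 UMIs. Their 10 erythroid markers, which were used to set them apart, summed to 11590 and 12810 CPM, against 2319 and 2201 CPM in the retained cells. The levels of those 5 genes in erythroid-like cells were below their levels in empty droplets, so they cannot be told from background.

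**Figure D1:**
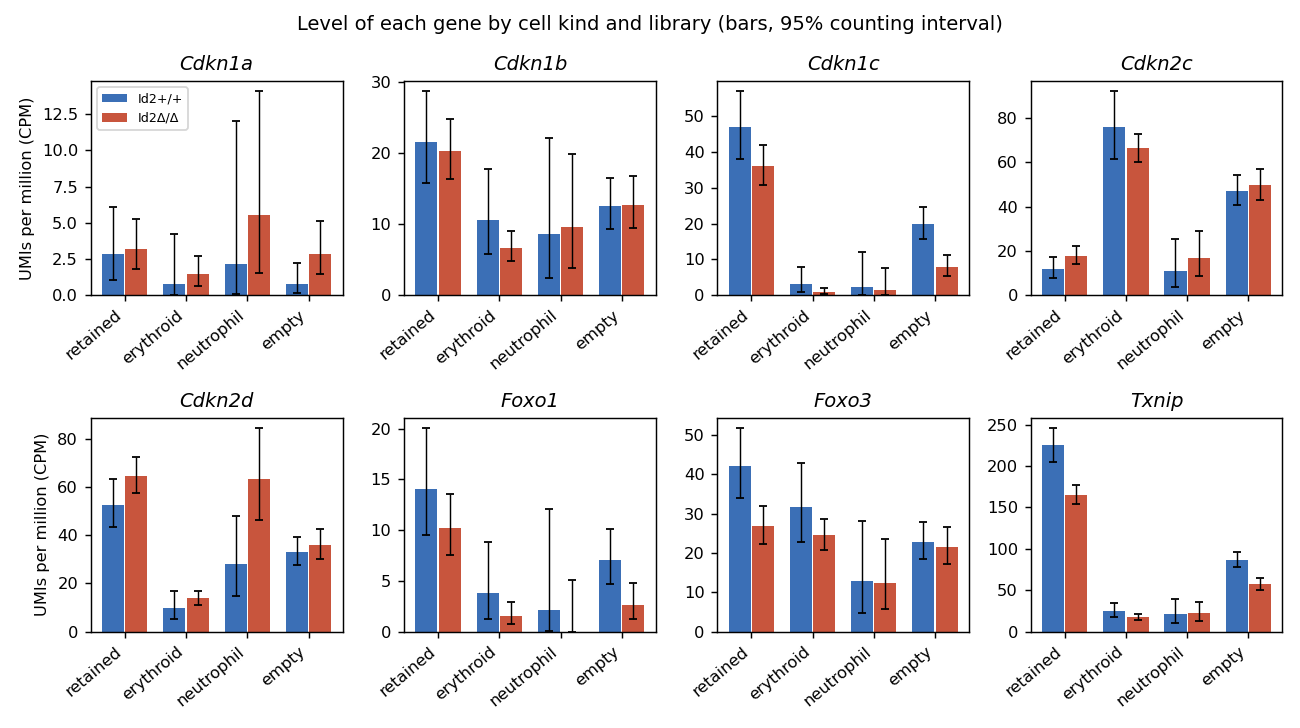
Level of each of the 8 genes, in CPM, in the retained, erythroid-like and neutrophil-like cells and in empty droplets, with Id2+/+ in blue and Id2Δ/Δ in red. Bars start at 0 and lines are 95% counting intervals. Cdkn1c and Txnip stand highest in the retained cells and Cdkn2c in the erythroid-like cells of both libraries.

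Among the CIP/KIP genes, Cdkn1a (ENSMUSG00000023067, chr17:29090979-29100722 in GRCm38), which encodes p21, a p53 target, was close to the detection limit. It had 6 UMIs in 5 of 262 retained Id2+/+ cells and 15 UMIs in 12 of 416 Id2Δ/Δ cells, or 2.81 CPM (1.03 to 6.12) and 3.20 CPM (1.79 to 5.28). Its level in empty droplets was 0.753 and 2.86 CPM. Of the 6 Id2+/+ UMIs, 5 lay in the 12 cells of the Vpreb3 cluster, or 35 CPM (11.4 to 81.7), against 4 UMIs in its 98 Id2Δ/Δ cells, or 3.33 CPM, a ratio of 0.0951 (0.0189 to 0.442). Outside that cluster the ratio was 6.29 (0.914 to 270.5), from 1 UMI in Id2+/+.

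Cdkn1b (ENSMUSG00000003031, chr6:134920401-134925525) encodes p27, which holds cyclin E-CDK2 in check and is removed by the SKP2 ubiquitin ligase. It had 46 UMIs in 39 retained Id2+/+ cells and 95 UMIs in 82 Id2Δ/Δ cells, or 21.6 CPM (15.8 to 28.8) and 20.3 CPM (16.4 to 24.8). These levels were near each other, with a ratio of Id2Δ/Δ over Id2+/+ of 0.94 (0.655 to 1.37). In erythroid-like cells Cdkn1b had 10.6 and 6.65 CPM, which was 0.492 (0.25 to 0.912) and 0.328 (0.223 to 0.477) of the retained level of the same library.

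Cdkn1c (ENSMUSG00000037664, chr7:143458339-143461059) encodes p57, an imprinted gene read from the maternal copy and the inhibitor most tied to HSC rest. It had 100 UMIs in 72 retained Id2+/+ cells and 169 UMIs in 119 Id2Δ/Δ cells, or 46.9 CPM (38.1 to 57) and 36.1 CPM (30.8 to 41.9). Few Cdkn1c UMIs lay in the other cell kinds. The erythroid-like cells had 4 and 5 UMIs (3.03 and 0.792 CPM) and the neutrophil-like cells 1 and 1. The erythroid-like level was 0.0647 (0.0173 to 0.171) of the retained level in Id2+/+ and 0.0220 (0.00704 to 0.0523) in Id2Δ/Δ. Empty droplets held 19.8 CPM in the Id2+/+ library and 7.80 CPM in the Id2Δ/Δ library, so free RNA carried Cdkn1c too, at a level above that of the erythroid-like cells.

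Of the INK4 genes, Cdkn2c (ENSMUSG00000028551, chr4:109660876-109666756), which encodes p18, had 25 UMIs in 19 retained Id2+/+ cells and 83 UMIs in 66 Id2Δ/Δ cells. That is 11.7 CPM (7.58 to 17.3) and 17.7 CPM (14.1 to 22.0), below the 47.2 and 49.7 CPM of the empty droplets. The erythroid-like cells had 75.8 CPM (61.7 to 92.2) and 66.4 CPM (60.2 to 73.1), or 6.47 (4.14 to 10.5) and 3.75 (2.96 to 4.80) times the retained level. At 5800 UMIs per cell, 38.2% of erythroid-like Id2+/+ cells (22.2 to 56.4, n = 34) and 30.1% of Id2Δ/Δ cells (23.1 to 38, n = 156) had a Cdkn2c UMI, against 3.57% (1.45 to 7.22, n = 196) and 6.01% (3.93 to 8.74, n = 416) of retained cells. When the empty-droplet profile was subtracted in proportion to haemoglobin UMIs, 14.5 of the 25 UMIs and 70.4 of the 83 UMIs of the retained cells were left.

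Cdkn2d (ENSMUSG00000096472, chr9:21288459-21291421) encodes p19, the other INK4 inhibitor measured. It had 112 UMIs in 82 retained Id2+/+ cells and 303 UMIs in 186 Id2Δ/Δ cells, or 52.5 CPM (43.2 to 63.2) and 64.7 CPM (57.6 to 72.4). In erythroid-like cells it was down to 9.86 and 13.8 CPM. The neutrophil-like cells, 27 and 40 in number, held 13 and 46 UMIs. Their level was 28.1 CPM (15 to 48.1) in Id2+/+ and 63.3 CPM (46.4 to 84.5) in Id2Δ/Δ, with a ratio of 2.25 (1.2 to 4.54). Empty droplets held 33.1 and 35.9 CPM of Cdkn2d, so the Id2+/+ level under this ratio cannot be told from background. Thus Cdkn2d and Cdkn2c, though of one family, had their higher levels in different cell kinds.

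For the FOXO genes, Foxo1 (ENSMUSG00000044167, chr3:52268337-52350109) had 30 UMIs in 29 retained Id2+/+ cells and 48 UMIs in 47 Id2Δ/Δ cells. Its levels were 14.1 CPM (9.49 to 20.1) and 10.2 CPM (7.55 to 13.6), with 3.79 and 1.58 CPM in the erythroid-like cells. Foxo3 (ENSMUSG00000048756, chr10:42181845-42276695), the FOXO factor best known for keeping HSCs at rest, had 90 UMIs in 78 retained Id2+/+ cells and 126 UMIs in 106 Id2Δ/Δ cells. That is 42.2 CPM (33.9 to 51.9) and 26.9 CPM (22.4 to 32). The erythroid-like cells had 31.8 and 24.6 CPM of Foxo3, 0.755 (0.511 to 1.10) and 0.913 (0.717 to 1.17) of the retained level. The neutrophil-like cells had 13.0 and 12.4 CPM (6 and 9 UMIs), or 0.308 (0.110 to 0.697) and 0.461 (0.206 to 0.903) of it. Empty droplets held 22.8 and 21.6 CPM of Foxo3, or 0.541 (0.4 to 0.733) and 0.802 (0.601 to 1.07) of the retained level. Thus the neutrophil-like levels, and the retained level in Id2Δ/Δ, cannot be clearly told from background. The Foxo3 interval includes another annotated gene, Gm38485, in the RefSeq table, and whether counting used strand is not given in the sources used here.

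Txnip (ENSMUSG00000038393, chr3:96557957-96561857) had 480 UMIs in 194 retained Id2+/+ cells and 774 UMIs in 325 Id2Δ/Δ cells, the most of any of the 8 genes. Its level was 225.0 CPM (205 to 246) in Id2+/+ and 165 CPM (154 to 177) in Id2Δ/Δ. Every other kind held far less: 25 and 17.7 CPM in erythroid-like cells, 21.7 and 22.0 CPM in neutrophil-like cells, and no UMI in the 9 and 13 haemoglobin-rich cells. The erythroid-like level was 0.111 (0.0757 to 0.158) and 0.107 (0.0873 to 0.131) of the retained level. Gm15441, which overlaps Txnip, had 6 and 21 UMIs in the retained cells, where reads of the pair cannot be told apart without strand.

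Shares of cells showed the same kinds high and low. Thinning to 5800 UMIs dropped 66 shallower Id2+/+ cells and 0 Id2Δ/Δ cells, and Txnip was then seen in 61.2% (54.0 to 68.1) of the Id2+/+ and 60.1% (55.2 to 64.8) of the Id2Δ/Δ retained cells. In erythroid-like cells the shares were 14.7% (4.95 to 31.1) and 8.97% (4.99 to 14.6). Unthinned, 74.0% and 78.1% of retained cells had one. Cdkn1c was found in 19.4% (14.1 to 25.6) and 21.2% (17.3 to 25.4) of retained cells and in 0 of 34 and 1 of 156 erythroid-like cells, or unthinned in 4 of 35 and 5 of 156. A Cdkn2d UMI was present in 23.5% (17.7 to 30.0) and 29.3% (25 to 34) of retained cells, and Foxo3 in 18.4% (13.2 to 24.5) and 16.1% (12.7 to 20). Foxo3 was found in 17.6% (6.76 to 34.5) and 12.2% (7.49 to 18.4) of erythroid-like cells, a range that overlaps the retained cells. These shares are of 1 random thinning. Over 20 others, the Foxo3 share of retained cells was 17.3% to 24% and 13.0% to 17.1%, and the Cdkn2c share 3.06% to 6.12% and 6.49% to 10.6%, the latter all above the 6.01% of the first. A retained cell had a median of 1 of the 8 genes at this depth, and 30 of 196 Id2+/+ and 74 of 416 Id2Δ/Δ cells had none of them. By haemoglobin UMIs, free RNA was put at 10.5% and 5.41% of the UMIs of retained cells. Empty droplets held 87.1 and 57.2 CPM of Txnip, and the part of free RNA in the shares was not tested.

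Within the retained cells, Txnip and Cdkn1c were highest in the HSC-like cluster and lowest, or nearly so, in a cluster led by Pf4. The retained cells were grouped into 6 clusters without the 8 genes, with every gene scaled library by library, and 2 are called here by a name from markers. Without that scaling, in the clustering that set the cell kinds, most retained cells split by library, with 104 and 4, 47 and 3, 8 and 148, 8 and 69, and 12 and 98 cells in 5 of its 7 retained clusters. Cluster 1 was HSC-like (72 and 86 cells, led by Meg3, Sult1a1, Smtnl1 and Procr) and cluster 0 activated HSC-like (86 and 114 cells, with Cd34 and Sox4 among its leading genes, but a mean log2 fold of its marker list of only 0.10). Of the others, cluster 2 was led by Ung (27 and 71 cells), cluster 3 by Ccl5 (30 and 49) and cluster 4 by Ccnb2 (17 and 35). Cluster 5 was led by Pf4 (30 and 61 cells, medians of 14046 and 19496 UMIs). It met the marker rule for the name platelet-biased HSC-like, with 7 raised markers and a mean log2 fold of 2.05. Its 10 leading genes held more proliferation genes, such as Aurkb, Pbk and Top2a, than such markers, so it is called the Pf4 cluster.

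In the HSC-like cluster Txnip had 361 CPM (307 to 421) in Id2+/+ and 297 CPM (258 to 341) in Id2Δ/Δ. In the activated HSC-like cluster it had 272 CPM (231 to 319) and 236 CPM (207 to 269). In the Pf4 cluster it had 83.2 CPM (58.0 to 116) and 49.0 CPM (37.5 to 62.9), so the intervals of the HSC-like and Pf4 clusters lay far apart in both libraries. The Ung cluster had 136 and 117 CPM, and the Ccnb2 cluster, led by mitotic genes, had 266 and 276 CPM, as much as the activated HSC-like cluster.

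Cdkn1c followed a similar course, with 108 CPM (79.8 to 144) and 80.1 CPM (60.5 to 104) in the HSC-like cluster and 16.6 CPM (6.69 to 34.3) and 12 CPM (6.74 to 19.9) in the Pf4 cluster. In between lay the activated HSC-like cluster with 47.2 and 39.7 CPM and the Ccnb2 cluster with 43.3 and 40.2 CPM. Only 3 Cdkn1c UMIs were seen in the Ccl5 cluster of Id2+/+ (10.8 CPM, 2.22 to 31.5).

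The INK4 genes ran differently. Cdkn2c had 2.26 and 8.58 CPM in the HSC-like cluster (1 and 6 UMIs) and 23.8 CPM (11.4 to 43.7) and 28.9 CPM (20.2 to 40) in the Pf4 cluster. These levels all lay below the 47.2 and 49.7 CPM of the empty droplets. Cdkn2d was nearly flat over the Id2+/+ clusters, between 46.8 and 61.8 CPM with overlapping intervals. In Id2Δ/Δ it was between 40.7 and 69.0 CPM in 5 clusters and 101 CPM (84.3 to 120) in the Pf4 cluster, where the ratio of Id2Δ/Δ over Id2+/+ was 1.93 (1.22 to 3.20).

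Foxo3 had 58.6 CPM (38.3 to 85.9) and 32.9 CPM (20.8 to 49.3) in the HSC-like cluster and 26.2 CPM (13.1 to 46.8) and 15.2 CPM (9.18 to 23.8) in the Pf4 cluster. The Id2Δ/Δ level in the Pf4 cluster lay below the 21.6 CPM of its empty droplets. Foxo1 had 13 UMIs in the 72 HSC-like cells of Id2+/+ and 6 in the 86 of Id2Δ/Δ, or 29.3 CPM (15.6 to 50.1) against 8.58 CPM (3.15 to 18.7), with the ratio at 0.293 (0.0912 to 0.825). In the other 5 clusters the Foxo1 interval of the ratio included 1. Cdkn1b had between 3.59 and 49.5 CPM over clusters and libraries, lowest in the Ccl5 cluster of Id2+/+ with 1 UMI.

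**Figure D2:**
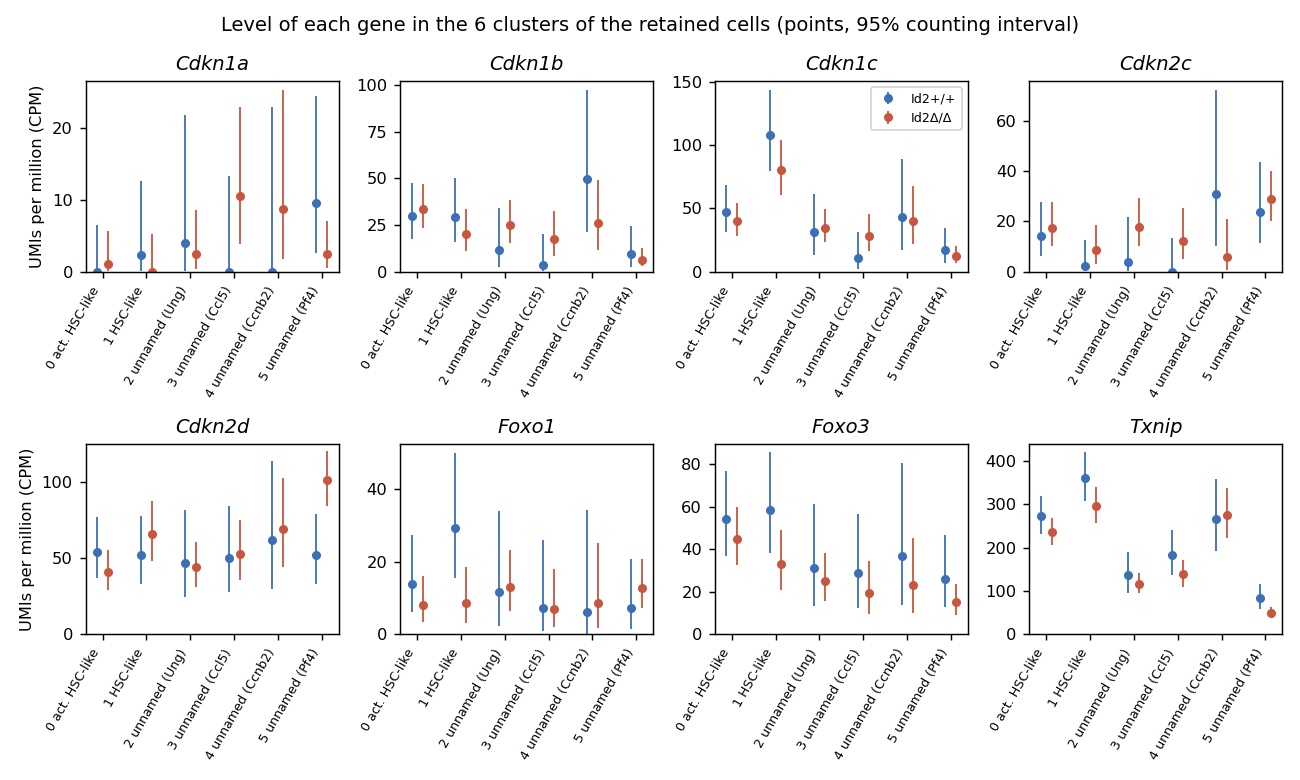
Level of each gene, in CPM, in the 6 clusters of the retained cells, with Id2+/+ in blue and Id2Δ/Δ in red; points are summed cells and lines 95% counting intervals. Txnip stands at 361 and 297 CPM in the HSC-like cluster and at 83.2 and 49.0 CPM in the Pf4 cluster, while Cdkn2c is higher in the latter.

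Over 15 summed profiles of library by cell kind or cluster with at least 20 cells, the levels of Txnip and Cdkn1c had a Pearson correlation of 0.928 on the scale of log2(CPM + 10). For Txnip and Cdkn2c it was -0.685. The profiles come from the same 2 libraries and include the erythroid-like and neutrophil-like cells, so they are a description. Among 4873 genes with at least 50 CPM in 1 profile, the genes most like Txnip were Gm12216 (0.978), Nkx2-3 (0.978) and Tnip3 (0.978). Those most like Cdkn1c were Nkx2-3 (0.972), Ifitm1 (0.969) and Zfp467 (0.968), so Nkx2-3, a homeobox gene, was in both sets. For Foxo3 they were Irf9 (0.886), Glul (0.884) and Dtx3 (0.880), for Cdkn2c Mrps7 (0.926) and Stx2 (0.909), and for Cdkn2d Cd9 (0.915), Gmds (0.894) and 1810058I24Rik (0.892). Cdkn1a, Cdkn1b and Foxo1 were under 50 CPM in every profile.

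At 5800 UMIs per cell, retained cells with a Cdkn1c UMI (38 and 88) had 263 CPM (200 to 340) and 249 CPM (207 to 296) of Txnip. Cells without one had 214 CPM (185 to 246) and 189 CPM (170 to 209), with overlapping intervals in both libraries. Cells with an Hlf and no Cd34 UMI (40 and 73) had 293 and 241 CPM of Txnip and 56.0 and 70.9 CPM of Cdkn1c, against 164 and 256 CPM of Txnip and 35.4 and 35.7 CPM of Cdkn1c in cells with Cd34 and no Hlf UMI (39 and 111).

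To set the brakes against division itself, retained cells were split by the share of their UMIs in 94 S and G2/M genes, none of which is one of the 8. The upper 25% over both libraries, from 0.810% of UMIs, are called the cycling cells and held 46 of 262 Id2+/+ cells (17.6%) and 124 of 416 Id2Δ/Δ cells (29.8%). They are a range on a scale and not a type: 62 cells lay within 10% of its lower edge. In both libraries, 30 of the 42 S genes and 48 of the 52 G2/M genes were more abundant in empty droplets than in retained cells. The part of free RNA in this split was not tested. Of the 7 genes with enough UMIs, 3 (Cdkn1c, Foxo3 and Txnip) were at least 1.5-fold lower in the cycling cells of both libraries, where 7.61% of all genes were. Only Cdkn2c was at least 1.5-fold higher in both, against 5.28% of all genes. With cycling cells taken as those with a Mki67 UMI, the Id2+/+ ratio was 0.906 for Foxo3 and 1.32 for Cdkn2c, and with the upper 10% the Id2Δ/Δ ratio of Foxo3 was 0.692, so both calls rest on the definition used.

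Cdkn1c had 58.5 CPM in the other cells and 15.6 CPM in the cycling cells of Id2+/+, a ratio of 0.267 (0.118 to 0.529), and 48.1 and 18.4 CPM in Id2Δ/Δ, a ratio of 0.383 (0.256 to 0.560). Txnip had 258 and 135 CPM in Id2+/+, a ratio of 0.523 (0.405 to 0.668), and 213 and 94.8 CPM in Id2Δ/Δ, a ratio of 0.445 (0.374 to 0.526). Foxo3 had ratios of 0.583 (0.317 to 1.01) and 0.610 (0.404 to 0.905). The reverse held for Cdkn2c, with 5.78 and 27.7 CPM in Id2+/+ (4.79, 1.99 to 12.3) and 11.8 and 26.3 CPM in Id2Δ/Δ (2.22, 1.41 to 3.56). All of these Cdkn2c levels lay below the 47.2 and 49.7 CPM of the empty droplets. The part of free RNA in the Cdkn2c ratios was not tested.

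For Cdkn2d the libraries went apart. The ratio of cycling over other cells was 0.815 (0.504 to 1.28) in Id2+/+, from 55.3 and 45.0 CPM, and 1.69 (1.34 to 2.13) in Id2Δ/Δ, from 50.6 and 85.3 CPM. With the upper 10% as cycling cells both were above 1, at 1.15 and 2.3. Cdkn1b had ratios of 0.567 (0.229 to 1.24) and 0.781 (0.496 to 1.21), and Foxo1 of 0.539 (0.161 to 1.43) and 1.24 (0.671 to 2.28). Cdkn1a had 1 UMI in the other cells and 5 in the cycling cells of Id2+/+, a ratio of 13.5 (1.51 to 637), and 8 and 7 in Id2Δ/Δ, a ratio of 1.28 (0.397 to 4.05). The cycling cells were deeper, with medians of 11598 and 13824.5 UMIs against 6716.5 and 8648, and the part of depth in these ratios was not tested.

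**Figure D3:**
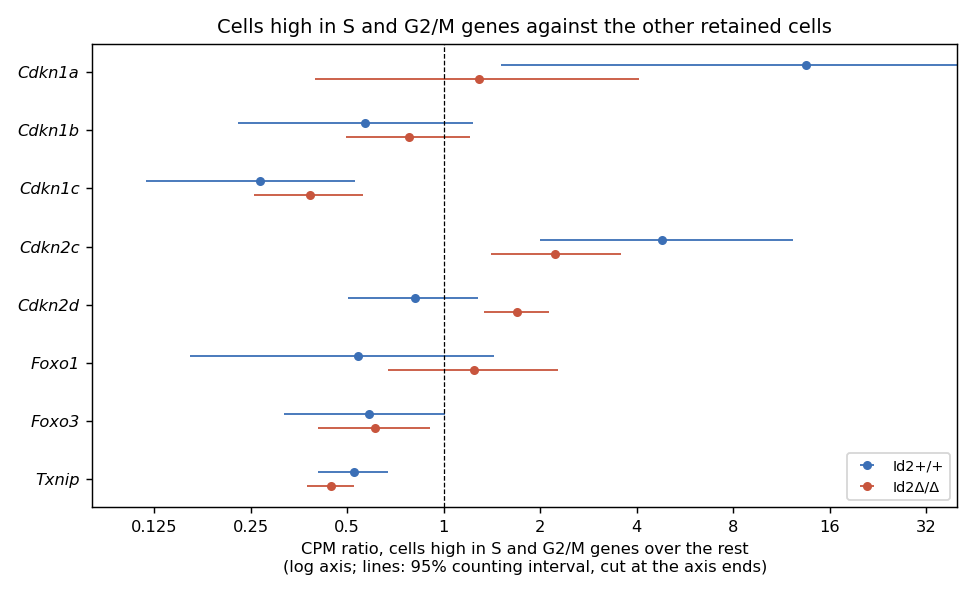
Ratio of the level in retained cells high in S and G2/M genes over the other retained cells, on a log axis, for each gene in Id2+/+ (blue) and Id2Δ/Δ (red), with 95% counting intervals that are cut at the axis ends. Cdkn1c and Txnip lie below 1 and Cdkn2c above 1 in both libraries, and Cdkn2d lies above 1 in Id2Δ/Δ with an interval that includes 1 in Id2+/+.

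Between genotypes, 3 of the 8 genes (Cdkn1c, Foxo3 and Txnip) had an interval of the ratio below 1 in the retained cells, as had 13.3% of the 10458 genes tested, and none had one above 1, as had 10.2%. Foxo3 alone was past 1.5-fold lower, as were 13.5% of all genes, and 0 of 8 were past 1.5-fold higher, against 3.30%, on ratios with 0.5 added to each count. These counts rest on the scaling. Under TMM scaling and median ratio scaling Foxo3 (0.687 and 0.671) was not past 1.5-fold lower, and Cdkn2c (1.63 and 1.59) was past 1.5-fold higher. Under both, 2 of the 8 intervals were then below 1, those of Foxo3 and Txnip, and 2 above 1, those of Cdkn2c (lower limits 1.03 and 1.01) and Cdkn2d (1.06 and 1.04), while Cdkn1c had upper limits of 1.07 and 1.05. Of all genes, TMM scaling put 16.3% of intervals above 1 and 8.28% below, and median ratio scaling 14.4% and 9.43%. Past 1.5-fold higher and lower were 5.37% and 9.94% of all genes under TMM scaling and 4.63% and 10.9% under median ratio scaling. The ratio was 0.637 (0.482 to 0.845) for Foxo3, 0.734 (0.654 to 0.825) for Txnip and 0.769 (0.597 to 0.996) for Cdkn1c. It was 0.728 (0.452 to 1.19) for Foxo1, 1.14 (0.417 to 3.58) for Cdkn1a, 1.51 (0.957 to 2.47) for Cdkn2c and 1.23 (0.989 to 1.54) for Cdkn2d. The median log2 ratio of the 8 genes was -0.24 and that of all genes tested -0.08.

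In erythroid-like cells, where 5 of the 8 genes had at least 20 UMIs, no gene had an interval above 1 or below 1, against 7.97% and 8.46% of all genes. Cdkn1b alone of the 5 was past 1.5-fold, with a ratio of 0.627 (0.336 to 1.24), where 12.8% of all genes were past it lower and 4.77% higher. The erythroid-like cells of the libraries lay mostly in different clusters, with 27 and 0, 0 and 76, and 8 and 80 cells. Txnip had a ratio of 0.709 (0.477 to 1.08) there, Foxo3 0.771 (0.545 to 1.11) and Cdkn2c 0.875 (0.702 to 1.10). By cluster of the retained cells, the Foxo3 ratio was below 1 in 6 of 6 clusters, from 0.561 to 0.828, and the Txnip ratio in 5 of 6, from 0.588 in the Pf4 cluster to 1.04 in the Ccnb2 cluster. In the Pf4 cluster alone did the interval for Txnip lie below 1 (0.382 to 0.919). The Foxo3 interval included 1 in each cluster.

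The lower cut for calling a cell was set within each library, so the shallowest retained cell had 4419 UMIs in Id2+/+ and 6181 UMIs in Id2Δ/Δ, and this moved with the genotype values. The 66 Id2+/+ cells under 5800 UMIs had 341 CPM (282 to 408) of Txnip, 101 CPM (70.4 to 141) of Cdkn1c and 72.2 CPM (46.7 to 107) of Foxo3. The 196 deeper Id2+/+ cells had 203 CPM (182 to 225), 36.4 CPM (28.1 to 46.4) and 36.4 CPM (28.1 to 46.4). With only cells of at least 5800 UMIs in both libraries, the ratio was 0.816 (0.719 to 0.927) for Txnip, 0.739 (0.544 to 1.01) for Foxo3 and 0.992 (0.741 to 1.34) for Cdkn1c. That subset gave 1.67 (1.0 to 2.91) for Cdkn2c and 1.27 (1.0 to 1.62) for Cdkn2d, both with a lower bound just above 1.

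Both pools were of mixed sex, in different shares. Xist but none of 4 Y-linked genes was detected in 84 of 262 Id2+/+ cells and 231 of 416 Id2Δ/Δ cells (Xist+), and the reverse in 93 and 90 cells (Y+). Txnip had 181 and 171 CPM in Xist+ cells, with the ratio at 0.943 (0.779 to 1.15), but 255 and 134 CPM in Y+ cells, with the ratio at 0.525 (0.416 to 0.661). Cdkn1c turned direction, with 1.31 (0.819 to 2.19) in Xist+ and 0.489 (0.288 to 0.820) in Y+ cells. Foxo3 had ratios of 0.718 (0.460 to 1.15) and 0.615 (0.353 to 1.07), below 1 in both. Cdkn2d had 1.32 (0.926 to 1.94) and 1.36 (0.856 to 2.22). Depth differed between these sets, with medians of 8082 and 9924 UMIs in Xist+ cells and 6483 and 9118 UMIs in Y+ cells. The part of depth in the ratios by sex was not tested.

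Without the cycling cells, the ratio was 0.825 (0.726 to 0.939) for Txnip, 0.671 (0.488 to 0.927) for Foxo3 and 0.822 (0.625 to 1.08) for Cdkn1c, while Cdkn2d stood at 0.915 (0.695 to 1.21). Within the cycling cells, Cdkn2d had a ratio of 1.90 (1.25 to 2.99) and Cdkn2c of 0.95 (0.532 to 1.79), against 2.05 (0.958 to 4.86) for Cdkn2c without them. The immediate early and heat shock genes of the stress list also moved with genotype: 14 of its 15 genes were detected in each library, and their sum was 1829 CPM in Id2+/+ and 711 CPM in Id2Δ/Δ. In cells without a Fos, Egr1 or Dusp1 UMI (56 and 216), the ratio was 0.887 (0.699 to 1.14) for Txnip, 0.740 (0.423 to 1.37) for Foxo3 and 0.745 (0.468 to 1.23) for Cdkn1c. Without the Vpreb3 cluster, the ratio was 0.782 (0.693 to 0.883) for Txnip, 0.571 (0.418 to 0.781) for Foxo3 and 0.775 (0.593 to 1.02) for Cdkn1c, and it was 1.74 (1.04 to 3.05) for Cdkn2c and 1.35 (1.08 to 1.71) for Cdkn2d. Free RNA differed too, since empty droplets had a ratio of 0.657 (0.552 to 0.780) for Txnip, 0.393 (0.249 to 0.606) for Cdkn1c and 0.945 (0.693 to 1.29) for Foxo3. With the empty-droplet profile subtracted from the retained cells in proportion to haemoglobin UMIs, the ratio was 0.711 for Txnip, 0.753 for Cdkn1c and 0.612 for Foxo3, and Cdkn2c moved from 1.51 to 2.1.

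**Figure D4:**
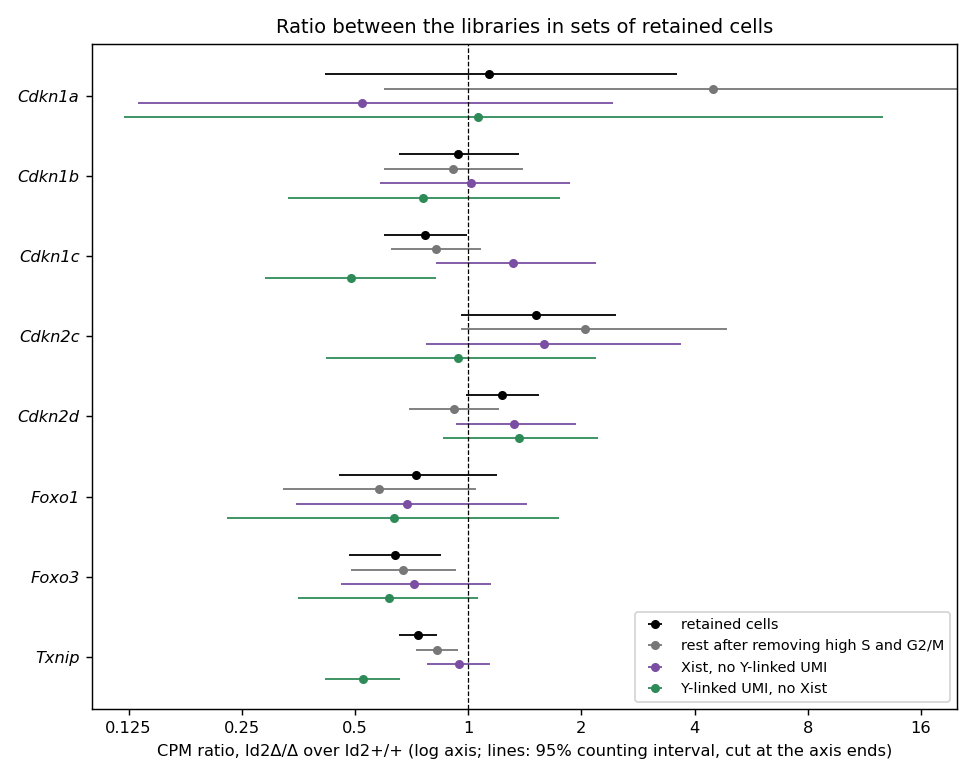
Ratio of the level in Id2Δ/Δ over Id2+/+, on a log axis, for each gene in all retained cells (black), in the cells left after the cycling cells were taken out (grey), and in Xist+ (purple) and Y+ (green) cells, with 95% counting intervals that are cut at the axis ends. Foxo3 lies below 1 in all of these sets, and Txnip is at 0.943 in Xist+ and 0.525 in Y+ cells.

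The relatives of these genes were sparse or mixed. The INK4 gene Cdkn2a had 0 and 1 UMI in the retained cells, Cdkn2b 0 and 0, and Foxo6 0 and 0. Foxo4 had 9.84 and 4.70 CPM (21 and 22 UMIs), a ratio of 0.477 (0.25 to 0.912). Cdkn3, which despite its name encodes a phosphatase of CDKs, had 11.2 and 20.5 CPM, a ratio of 1.82 (1.16 to 2.98). Of the arrestin relatives of Txnip, Arrdc1 had 0.764 (0.616 to 0.952), Arrdc4, which like Txnip is a MondoA target, 0.689 (0.452 to 1.06), Arrdc3 0.562 (0.283 to 1.14) and Arrdc2 0.971 (0.511 to 1.93). Of the 6 family genes with at least 20 UMIs, 1 had an interval above 1 and 2 below 1, against 10.2% and 13.3% of all genes, the shares that also stand behind the lists that follow. Cdkn3 was more abundant in empty droplets (42.9 and 61.1 CPM) than in retained cells in each library, as was Arrdc2. Of the genes named below for the lists on kinases, pocket proteins, turnover, FOXO, p53 and thioredoxin, the same held for Ccnb1, Ccne1, Ccne2, Ccnd3, Rb1, Rbl1, Cks1b, Rnf123, Sod2, Gadd45a, Phlda3 and Txn2.

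Of the targets of the brakes, all 11 kinases and cyclins were measured, with a median log2 ratio of 0.18, 4 intervals above 1 and 1 below (all genes 10.2% and 13.3%). Ccnb1, the mitotic cyclin, had a ratio of 1.69 (1.30 to 2.21) and Ccne2 1.59 (1.0 to 2.62), while Ccne1 had 0.649 (0.463 to 0.916) and Ccnd3 0.94 (0.842 to 1.05). The 12 pocket protein and DREAM genes had a median of -0.17, 0 intervals above 1 and 1 below, that of Rbl2 (0.492, 0.307 to 0.792), which encodes p130, the pocket protein of resting cells. Tfdp1 had 0.592 (0.318 to 1.12), Rbl1 1.38 (0.933 to 2.08) and Rb1 1.32 (0.651 to 2.91). The 8 genes of p27 turnover had a median of 0.01, with 2 intervals above 1 and 0 below: Cks1b had 1.40 (1.24 to 1.59), from 158 and 221 CPM against 289 and 386 CPM in empty droplets, Skp2 1.41 (0.947 to 2.14), Rnf123 0.911 (0.558 to 1.52) and Skp1a 0.952 (0.854 to 1.06).

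Upstream of the FOXO factors, 14 of 15 regulators were tested, with a median log2 ratio of -0.20, 0 intervals above 1 and 4 below, against 10.2% and 13.3% of all genes. Pik3cd, which encodes a catalytic subunit of PI3K, had 36.6 and 26.5 CPM, a ratio of 0.724 (0.541 to 0.974). Stk4 had 1.09 (0.847 to 1.41) and Sirt1 1.06 (0.565 to 2.09). Of 15 known FOXO targets, 13 were tested, with a median of -0.25, 1 interval above 1 and 5 below, against the same shares. Insr, the insulin receptor, had 0.443 (0.274 to 0.716) and Rictor, a subunit of mTORC2, 0.558 (0.360 to 0.869), while the antioxidant enzyme gene Sod2 had 1.2 (1.05 to 1.38), from 135 and 162 CPM against 177 and 212 CPM in empty droplets, and Gadd45a 1.19 (0.786 to 1.83).

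Among 13 of 15 p53 targets tested beside Cdkn1a, the median was -0.07, with 0 intervals above 1 and 2 below, near the 13.3% of all genes. Plk2 had 0.245 (0.0828 to 0.661) and Sesn2 0.674 (0.395 to 1.17), while Phlda3 had 1.87 (0.887 to 4.41) and Trp53inp1 1.52 (0.588 to 4.62). Of the thioredoxin and MondoA genes around Txnip, 7 of 8 were tested, with a median of -0.30, 1 interval above 1 and 0 below. Txn1, the thioredoxin that TXNIP binds, had 625 and 793 CPM, a ratio of 1.27 (1.19 to 1.35), against the ratio below 1 of Txnip itself. Txn2 had 1.10 (0.976 to 1.25), Slc2a1, which encodes the glucose transporter GLUT1, 0.705 (0.471 to 1.07), and Mlxip, which encodes MondoA, 0.737 (0.416 to 1.34).

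For comparison, the stress list had a median of -1.64, with 12 of 12 tested genes below 1 by their intervals, among them Hspa1a (0.111, 0.0519 to 0.219) and Fos (0.167, 0.139 to 0.200), and Ier2 (0.661, 0.580 to 0.754) and Junb (0.719, 0.584 to 0.889) nearest to 1. The S list had a median of 0.38, with 26 of 42 intervals above 1 and 1 below, and the G2/M list 0.33, with 22 of 52 above and 1 below. Of these, 30 of the 42 S genes and 48 of the 52 G2/M genes were more abundant in empty droplets than in retained cells in both libraries.

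**Figure D5:**
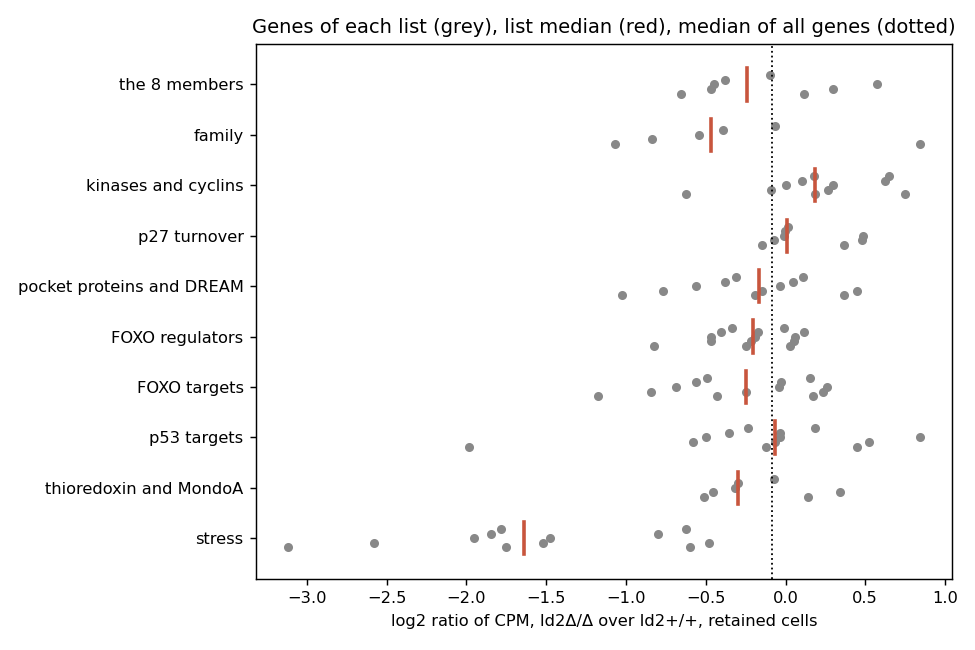
Log2 ratio of the level in Id2Δ/Δ over Id2+/+ in the retained cells for each gene with at least 20 UMIs (grey points) in the 8 genes and 9 lists, with the list median in red and the median of all genes as a dotted line. The 8 genes spread to both sides of 0 around a median of -0.24, and the stress genes lie lowest, around -1.64.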

How the data were processed

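Both libraries were captured on the 10x Genomics Chromium. The authors deposited, for each library, raw UMI counts of 27998 genes over 737280 barcodes, made with Cell Ranger 2.2.0 on mm10 per the submitters' processing notes, and the counts were used as deposited. No source used here gives the annotation, the use of strand or the chemistry. Gene positions are those of the RefSeq table of GRCm38.p6, the assembly behind mm10, matched by symbol for 8 of 8 genes.

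The 8 genes and all lists were chosen with earlier results of these data known. A cell had at least 10% of the UMIs of the 99th percentile of the 1000 deepest barcodes and under 10% mitochondrial UMIs. The labels count 383 and 686 analyzed cells, against 349 and 632 called here before the mitochondrial limit. Cells were clustered with scanpy 1.11.5 (Leiden, 2000 variable genes without the 8, 20 components, 15 neighbours, resolution 1), and clusters were set apart where at least 4 markers of another cell type were raised. A second clustering, at resolution 0.8 with genes scaled library by library, split the retained cells. Of a cell's neighbours, 43.4% and 63.5% came from its own library, where full mixing would give 38.6% and 61.3%, while the first clustering, without that scaling, largely split the retained cells by library. Scrublet marked 2 and 1 cells as doublets, which were kept.

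UMIs were summed per library and kind and given per 1000000. Intervals are exact Poisson for levels, exact conditional for ratios and Clopper-Pearson for shares, all at 95%, and cover counting error only. List values are log2 ratios with 0.5 added to each count, for genes reaching 20 UMIs in the sum of both libraries. For shares, each cell was thinned once to 5800 UMIs. TMM factors came from edgeR 4.0.16. Named genes were the 8, Id2, the family list, the 2 highest and 2 lowest ratios of each other pathway list, and the 3 genes most like each of the 8 over the summed profiles. Of the genes this rule named, 2 are not reported here. The extremes of the S and G2/M lists, by the same rule, were Dscc1, Rad51ap1, Pcna and Blm, and Bub1, Ckap2l, Cdc25c and Lbr. The alternatives given under the processing heading were tried. Those on the 5800 UMI limit without thinning, on Fos, Egr1 and Dusp1, on equal cluster shares, on 20 thinnings of the ratio and on the Vpreb3 cluster were chosen after the values were seen.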

Additional observations from a re-analysis of the deposited data

Results flagged for a closer look

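Of 40 pairs of ratios compared between cell kinds, sexes of cells or libraries, 2 had counting intervals that did not overlap, and neither difference was tested. The Txnip ratio of Id2Δ/Δ over Id2+/+ was 0.943 among Xist+ cells and 0.525 among Y+ cells. Of these sets, the Y+ cells of Id2+/+ were the shallowest, with a median of 6483 UMIs. The Cdkn2d ratio of cells high in S and G2/M genes over the other retained cells was 0.815 in Id2+/+ and 1.69 in Id2Δ/Δ, the former from 26 UMIs in 46 cycling cells and the latter from 162 UMIs in 124.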

How the results depend on the processing

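No paired analysis was possible because only 1 library was made for each genotype. Of 159 alternative values of the genotype ratio, 14 lay on the other side of 1 from the reported value: 6 of Cdkn1b, 3 of Cdkn1c, 2 of Cdkn1a and 1 each of Cdkn2c, Cdkn2d and Foxo1. Of these genes, Cdkn1c alone had a reported interval off 1. Inside the reported interval lay 140 of the 159 values. Foxo3 (0.571 to 0.885) and Txnip (0.525 to 0.943) were below 1 under each of the 20 alternatives run for each, and Cdkn1c ranged from 0.489 to 1.31. The limits are counting error, 1 capture per genotype, and a cell call that reached lower in Id2+/+. Cdkn1a rests on 21 UMIs.

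Cdkn1c turned to 1.11 with every cell thinned to 5800 UMIs (1.07 as the median of 20 draws) and to 1.31 in Xist+ cells, and was 0.489 in Y+ cells and 0.566 with every cell type left in. Txnip was 0.901 after thinning (0.865 over 20 draws), 0.943 in Xist+ cells, 0.525 in Y+ cells, 0.582 with every cell type left in and 0.825 without the cycling cells. It was 0.843 with both libraries given equal cluster shares and 0.887 in cells without a Fos, Egr1 or Dusp1 UMI, and Foxo1, with 2 UMIs left in Id2+/+, was 2.37 there. Foxo3 was 0.885 after thinning, but 0.682 as the median of 20 draws (0.615 to 0.856), and Cdkn2c was 0.942 in Y+ cells. Without the cycling cells, Cdkn2d was 0.915 and Cdkn1a, with 1 and 8 UMIs, 4.47. Without the Vpreb3 cluster Cdkn1a was 6.29.

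With cycling cells taken as those with a Mki67 UMI (62 and 121), the ratio over other cells in Id2+/+ was 1.66 for Cdkn1b, 1.57 for Foxo1 and 1.32 for Cdkn2c, and in Id2Δ/Δ 0.628 for Cdkn1c and 0.587 for Txnip. With the upper 10% (15 and 53), it was 0.61 for Cdkn1c in Id2+/+, and 0.434 for Cdkn1b and 2.3 for Cdkn2d in Id2Δ/Δ, while Cdkn2d in Id2+/+ moved from 0.815 to 1.15, the other side of 1. In HSC-like cells Cdkn1c in Id2+/+ had 72.8 CPM at resolution 0.5, 75.1 CPM at resolution 1.2 and 69.7 CPM with genes scaled over both libraries together, and in Id2Δ/Δ 56.2 CPM at resolution 0.5. That joint scaling gave 288 and 341 CPM of Txnip and 98.1 CPM of Cdkn1c in Id2Δ/Δ, but the class then lay in different clusters, with 171 and 0 cells in one and 10 and 52 in the other, so these levels do not compare the libraries.

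Asking for 2 UMIs per cell, the shares were 36.7% and 32.7% for Txnip, 3.06% and 4.09% for Cdkn1c, 4.08% and 4.57% for Cdkn2d, and 2.04% and 2.16% for Foxo3. With every cell type left in, the median log2 ratio was 0.316 for p27 turnover and 0.105 for thioredoxin and MondoA. Empty droplets of 1 to 20 UMIs held 0.0 and 0.0 CPM of Cdkn1a, 17.2 and 35.8 CPM of Cdkn1b, 11.5 and 0.0 CPM of Foxo1, and 115 and 100 CPM of Txnip. In those droplets Cdkn1c was at 0.0 CPM and Cdkn2d at 46.6 CPM in Id2Δ/Δ, and Foxo3 at 46 CPM in Id2+/+. These levels are given without counting intervals, and a level of 0.0 CPM does not show that a gene was absent.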
